A study of Mus musculus with 27 samples.

Results

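The genes of MHC class II antigen presentation were followed in the colonic epithelium of mice given the dioxin TCDD, a persistent ligand of the aryl hydrocarbon receptor. They were the 7 genes H2-Aa, H2-Ab1, H2-Eb1, Cd74, Ciita, H2-DMa and H2-DMb1, out of 46078 gene rows in each count table, and were found by matching their Ensembl identifiers to these symbols.

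RNA was sequenced from 27 male C57BL/6 mice, each dosed by oral gavage every 4 days for 28 days, 7 gavages in all, from an age of 28 days to 56 days. The 9 groups held 3 mice each and received sesame oil vehicle or TCDD at 30, 10, 3, 1, 0.3, 0.1, 0.03 or 0.01 μg/kg. The tissue was the epithelium scraped from the colon, so each library was a bulk sample that could also carry RNA of immune, stromal and muscle cells. In such samples fewer cells of a type and less RNA per cell cannot be told apart.

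Class II molecules present peptides from endocytosed protein to CD4 T cells. Each is a pair of an α and a β chain that assembles with the invariant chain, encoded by Cd74, which blocks the peptide groove and steers the complex to endosomes. There the invariant chain is cut down to a short remnant, and the chaperone H2-DM, a pair of H2-DMa and H2-DMb chains, releases that remnant and lets peptide bind. Dendritic cells, B cells and macrophages carry class II constitutively, and intestinal epithelial cells can be induced to carry it by interferon γ. The transactivator Ciita is the switch in both settings. It does not bind DNA itself but docks on factors that sit on the X and Y boxes upstream of the class II chain genes, of Cd74 and of the H2-DM genes.

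The upstream sequences show which of these letters the class II genes share and where they differ. RefSeq promoter windows (GRCm38.p6) were matched for 4 of the 7 genes, H2-Aa, H2-Eb1, H2-DMa and H2-DMb1, and not for H2-Ab1, Cd74 and Ciita. The 150 bases before the annotated start are given 5′ to 3′ on the gene's strand for 3 of these genes and for H2-DMb2 and H2-Ob, which are set beside them further on. Capitals mark any match, on either strand, to one of 5 motifs. TAGNAAC and ACNGATG are the left and right parts of an X box pattern that was written after these windows had been read, and they overlap by their shared letters. ATTGG is the Y box, the inverted form of the CCAAT box. TGACG is the core of a cAMP response element, and GCGTG holds the core letters of the dioxin response element to which the receptor binds.
H2-Aa, chr17:34287824-34287973, minus strand: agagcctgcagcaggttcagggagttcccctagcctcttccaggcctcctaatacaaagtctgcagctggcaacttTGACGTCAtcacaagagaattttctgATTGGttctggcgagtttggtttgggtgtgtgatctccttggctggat
H2-Eb1, chr17:34305717-34305866, plus strand: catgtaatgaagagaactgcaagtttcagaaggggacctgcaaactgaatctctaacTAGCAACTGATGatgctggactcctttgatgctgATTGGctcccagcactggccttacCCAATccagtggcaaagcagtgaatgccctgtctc
H2-DMb1, chr17:34153041-34153190, plus strand: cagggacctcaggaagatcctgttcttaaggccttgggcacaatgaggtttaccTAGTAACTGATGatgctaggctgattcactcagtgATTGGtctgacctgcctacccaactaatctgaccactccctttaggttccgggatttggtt
H2-DMb2, chr17:34145099-34145248, plus strand: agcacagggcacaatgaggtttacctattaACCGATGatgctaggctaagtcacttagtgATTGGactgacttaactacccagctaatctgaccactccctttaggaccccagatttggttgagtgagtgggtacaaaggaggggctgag
H2-Ob, chr17:34238755-34238904, plus strand: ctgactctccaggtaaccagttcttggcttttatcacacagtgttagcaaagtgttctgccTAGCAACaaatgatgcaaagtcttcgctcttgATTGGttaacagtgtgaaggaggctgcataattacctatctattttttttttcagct

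Each of the 5 windows held ATTGG, which began 48 bases before the start in H2-Aa, 59 in H2-Eb1, 61 in H2-DMb1, 90 in H2-DMb2 and 57 in H2-Ob. Among 32851 promoter windows of 250 upstream bases, 33.8% held these letters. Both parts of the X box pattern stood joined in H2-Eb1, beginning 93 bases before the start, and in H2-DMb1, beginning 96 bases before it. H2-Ob held the left part alone, 89 bases before the start, and H2-DMb2 the right part alone, 120 bases before it. In H2-Aa the right part was found 232 bases upstream, outside the stretch printed. The stretch printed holds tggcaac shortly before TGACGTCA, which comes close to the left part but does not match it. The left part was in 9.93% and the right part in 8.31% of all windows. H2-Aa held the overlapping pair of TGACG and its reverse complement, 74 and 71 bases before the start, and 17.8% of all windows held this core on either strand. GCGTG was not found in the 250 bases upstream of any of the 4 genes matched, and 28.2% of all windows held it. H2-DMa had windows at 2 annotated starts, of which 1 held ATTGG, 198 bases upstream. These matches describe letters and not binding.

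In the count files' build, GRCm38, 5 of the 7 genes lie on chromosome 17. H2-Aa (ENSMUSG00000036594, chr17:34282744-34287823) lies on the minus strand between H2-Ab1 (ENSMUSG00000073421, chr17:34257689-34269419) and H2-Eb1 (ENSMUSG00000060586, chr17:34305867-34316674), which are on the plus strand. H2-DMa (ENSMUSG00000037649, chr17:34119541-34139101) and H2-DMb1 (ENSMUSG00000079547, chr17:34153072-34160230) are also on the plus strand. Cd74 (ENSMUSG00000024610, chr18:60803848-60812652) and Ciita (ENSMUSG00000022504, chr16:10480059-10528418) lie elsewhere. The annotated span of H2-DMa overlaps Brd2, that of Ciita overlaps Dexi and that of H2-Eb1 overlaps the antisense transcript Gm20513. Whether the counting used strand is not given in the sources used here, so reads in these overlaps cannot be assigned with certainty. H2-DMb1 and H2-DMb2 are near-identical copies that can split or lose shared reads, and values of both are uncertain for that reason.

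All 7 genes passed the filter on low counts, together with 16489 others, in libraries of 9305441 to 14371035 reads counted on genes. The AhR target genes followed the labels, and all 4 of Cyp1a1, Cyp1b1, Ahrr and Tiparp rose at 30 μg/kg. Cyp1a1, the cytochrome P450 that marks receptor activation, averaged 0.0655 ± 0.0567 CPM (read counts scaled to library size; SD, n = 3) in vehicle mice and 2200 ± 198 at 30 μg/kg. The epithelial genes summed to 7640 to 11500 CPM per mouse. The B cell genes summed to 3.42 to 19.7 CPM, the dendritic cell genes to 2.38 to 6.96, the macrophage genes to 10.4 to 27 and the 7 class II genes to 44.5 to 128. Library index barcodes were used in 2 sets, the first in the 16 mice from vehicle to 0.3 μg/kg and mouse 41 of the 1 μg/kg group, and the second in the other 11 mice, so that index set followed dose.

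Class II transcripts were present at low to moderate levels in every mouse. Per length of the longest coding transcript, Cd74 was the highest at 24.6 ± 8.9 RPKM (SD, n = 27 mice over all doses), above H2-Aa in 27 of 27 mice. H2-Aa (10.9 ± 3.71 RPKM) and H2-Ab1 (10.7 ± 3.24 RPKM), the chains of the I-A molecule, could not be ordered, since H2-Aa was the higher in 16 of 27 mice. H2-Eb1, the β chain of the I-E molecule, followed at 4.32 ± 1.3 RPKM and was below H2-Ab1 in 27 of 27 mice. Its α chain partner is a pseudogene in C57BL/6 mice, and H2-Ea-ps was listed at 0 reads in 26 of 27 mice.

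The loading chaperone and the transactivator were lower still. H2-DMa stood at 1.33 ± 0.404 RPKM, below H2-Eb1 in 27 of 27 mice, and H2-DMb1 at 0.89 ± 0.464 RPKM, below H2-DMa in 23 of 27. Ciita was the lowest per length, at 0.527 ± 0.167 RPKM, and below H2-DMb1 in 23 of 27 mice. In reads, the medians per mouse were 385 for Cd74, 136 for H2-Ab1, 133 for H2-Aa, 76 for H2-Eb1, 34 for Ciita, 30 for H2-DMa and 11 for H2-DMb1. H2-DMb1 had as few as 3 reads in a mouse, so its ratios between single mice are the least precise of the 7. The SD of log2 CPM between mice of the same dose ran from 0.30 for H2-DMa to 0.56 for H2-DMb1, larger than that of 65.2% and 90.8% of the genes tested.

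**Figure D1:**
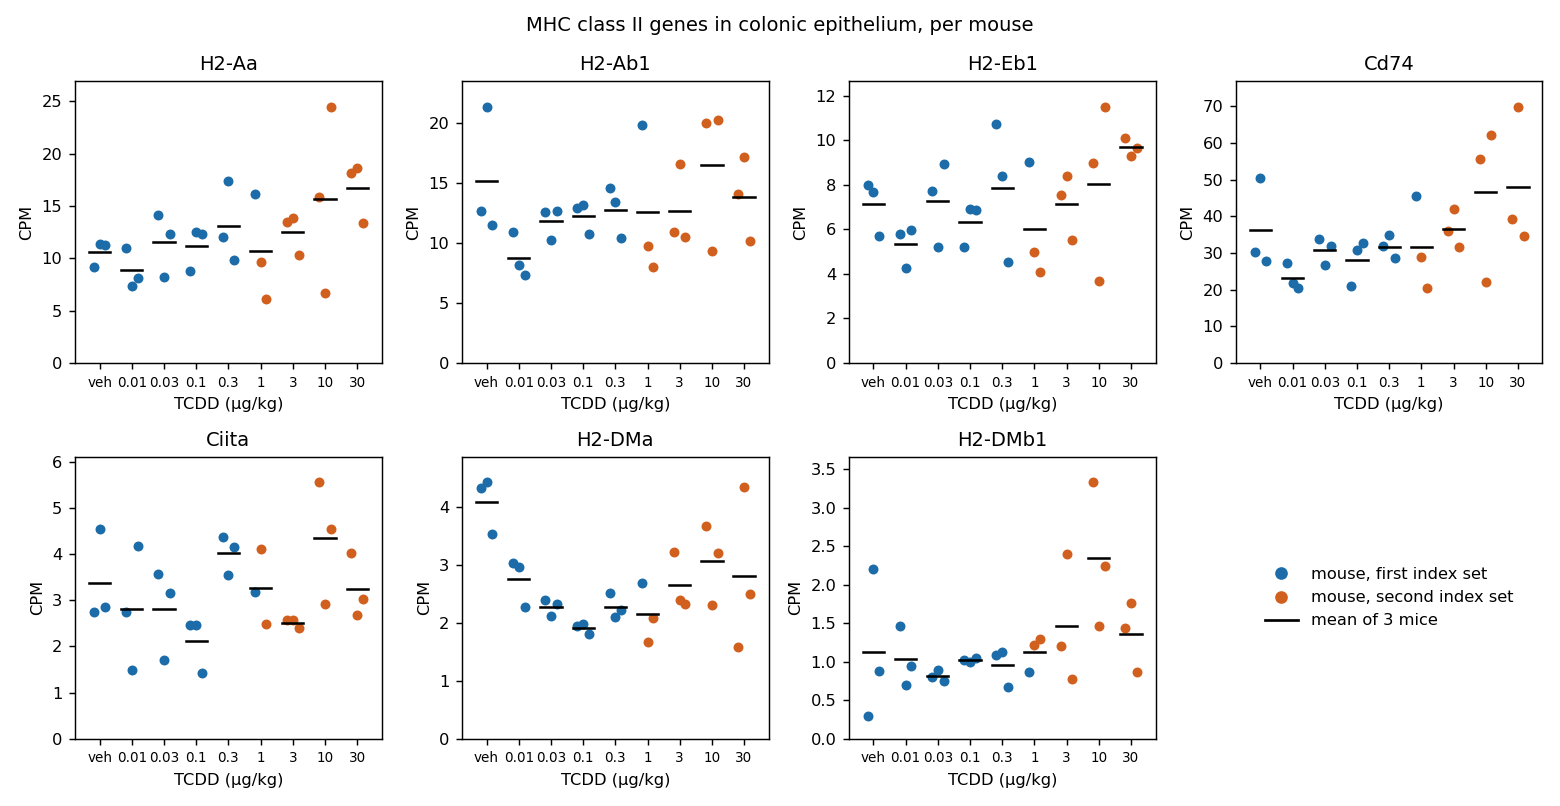
Level of each class II gene in CPM (linear axes from 0) for every mouse, by TCDD dose in μg/kg; points are mice, coloured by library index set, and lines are means of 3 mice. H2-Aa and Cd74 reached their highest values, 24.5 and 69.9 CPM, at 10 and 30 μg/kg, while the 3 vehicle mice had 3.53 to 4.43 CPM of H2-DMa, above every mouse from 0.01 to 3 μg/kg.

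None of the 7 class II genes passed the test against the vehicle at any of the 8 doses (edgeR's quasi-likelihood test, Benjamini-Hochberg adjusted p under 0.05 and a fold of at least 1.5). The same test called 0% of 16496 genes at each dose from 0.01 to 0.3 μg/kg, 0.2% at 1, 0.697% at 3, 1.78% at 10 and 6.16% at 30 μg/kg. An unadjusted p under 0.05 was reached by 2 of 7 genes at 0.01 μg/kg, where 6.35% of all genes reached it, and by 1 of 7 at each of the other doses. Over all genes that share was 4.64% at 0.03, 6.37% at 0.1, 5.19% at 0.3, 9.8% at 1, 16% at 3, 17.8% at 10 and 27% at 30 μg/kg. DESeq2 and limma voom also called none of the 7. All of these comparisons used the same 3 vehicle mice.

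H2-Aa, the I-A α chain, had the largest positive difference at 30 μg/kg. Its values were 9.15, 11.4 and 11.3 CPM in the vehicle mice and 18.2, 18.6 and 13.4 CPM at 30 μg/kg. The groups did not overlap, which held in this direction for 14.5% of all genes. The log2 difference was 0.66 (SE 0.34, 95% interval -0.014 to 1.33), a fold of 1.58, with an adjusted p of 0.222 by edgeR's quasi-likelihood test. The exact permutation test gave p = 0.1, the smallest that 3 against 3 mice allow.

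Vehicle and 30 μg/kg mice carried different index sets, and a fit with the index set as a term beside the dose groups gave H2-Aa a difference of 1.70 (adjusted p = 0.0836, edgeR). In that fit the term rests on the 3 mice of the 1 μg/kg group, which alone held both sets. There mouse 41, of the first set, had the highest H2-Aa, H2-Ab1, H2-Eb1 and Cd74 of the 3. H2-Aa was at 16.2 CPM in mouse 41 and at 9.66 and 6.16 CPM in mice 43 and 44. Mouse 41 was also above its group mean in the marker lists of stroma and muscle (1.51 on the log2 scale), B cells (0.80), dendritic cells (0.71), macrophages (0.55) and plasma cells (0.51). Myh11, the smooth muscle myosin, was at 132 CPM in mouse 41 and at 13 and 7.15 CPM in the others. The part of these cells in the values with the index set term was not tested.

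H2-Eb1 lay in the same direction and also without overlap at 30 μg/kg, with 7.97, 7.69 and 5.69 CPM in the vehicle mice and 10.1, 9.28 and 9.65 CPM at that dose. Its log2 difference was 0.44 (SE 0.33; adjusted p = 0.422, edgeR), and 1.44 with the index set term (adjusted p = 0.141). H2-Ab1, the β chain that pairs with H2-Aa, had 12.7, 21.4 and 11.5 CPM in the vehicle mice and 14.1, 17.2 and 10.2 CPM at 30 μg/kg. These overlapped, with a log2 difference of -0.13 (SE 0.31; adjusted p = 0.831, edgeR), and mouse 3 of the vehicle group was the highest of all 27 for this gene. Without mouse 3 the difference of H2-Ab1 was 0.20, and the fit with the index set term gave 1.03.

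H2-Aa and H2-Eb1 spread most widely at 10 μg/kg. H2-Aa was at 15.9, 6.68 and 24.5 CPM there, and the lowest and highest of these, mice 58 and 59, also had the lowest and highest H2-Eb1 of all 27 mice, 3.68 and 11.5 CPM. H2-Ab1 stood at 20, 9.33 and 20.3 CPM in the same mice. Beside this spread the log2 differences from vehicle were 0.57 for H2-Aa, 0.13 for H2-Ab1 and 0.18 for H2-Eb1, with adjusted p-values of 0.408, 0.881 and 0.831 (edgeR). For H2-Aa the difference was 0.089 without mouse 59 and 0.93 without mouse 58. With the index set term the differences at 10 μg/kg were 1.61 for H2-Aa, 1.29 for H2-Ab1 and 1.18 for H2-Eb1, and none of them passed (adjusted p = 0.156, 0.18 and 0.318, edgeR).

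At the lowest dose, 0.01 μg/kg, all 7 genes were below the vehicle, with a median log2 difference of -0.42 against 0.0071 over all genes. H2-Ab1 was at 10.9, 8.19 and 7.31 CPM there, each below the 3 vehicle mice, as held for 5.03% of all genes. Its log2 difference of -0.79 (SE 0.32; unadjusted p = 0.0217, adjusted p = 0.781, edgeR) was the largest of the 3 chain genes at any dose. The chain genes returned toward the vehicle from 0.03 μg/kg on, with log2 differences between -0.36 and 0.30 at 0.03 to 3 μg/kg.

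Cd74, the invariant chain, was at 30.2, 50.5 and 27.7 CPM in the vehicle mice, 55.6, 22.1 and 62.1 CPM at 10 μg/kg and 39.3, 69.9 and 34.7 CPM at 30 μg/kg. The groups overlapped at both doses. The log2 difference was 0.37 (SE 0.32; adjusted p = 0.578, edgeR) at 10 μg/kg and 0.41 (SE 0.32; adjusted p = 0.436) at 30 μg/kg. With the index set term these were 1.26 and 1.30 (adjusted p = 0.246 and 0.159, edgeR). With a mouse left out, the difference at 10 μg/kg ran from 0.11 without mouse 59 to 0.71 without mouse 58. The difference at 30 μg/kg ran from 0.038 without mouse 66 to 0.73 without mouse 3. At 0.01 μg/kg Cd74 was at 27.3, 21.9 and 20.5 CPM, below all 3 vehicle mice, with a difference of -0.64 (SE 0.33; adjusted p = 0.781, edgeR).

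Ciita had no clear order by dose. It was at 2.75, 4.53 and 2.85 CPM in the vehicle mice, 5.55, 2.91 and 4.55 CPM at 10 μg/kg and 4.03, 2.68 and 3.02 CPM at 30 μg/kg. Its group means lay between 2.12 ± 0.6 CPM at 0.1 μg/kg and 4.34 ± 1.33 CPM at 10 μg/kg (SD, n = 3 each). The difference from vehicle was -0.67 (SE 0.35; adjusted p = 0.791, edgeR) at the former dose and 0.36 (SE 0.32; adjusted p = 0.589) at the latter. With a mouse left out, the difference at 10 μg/kg ran from 0.16 without mouse 57 to 0.63 without mouse 3.

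H2-DMa, the α chain of the loading chaperone, was below the vehicle mean at 8 of 8 doses. The vehicle mice had 4.33, 4.43 and 3.53 CPM. Mice at 0.01 μg/kg had 3.03, 2.96 and 2.28 CPM, at 0.03 μg/kg 2.4, 2.12 and 2.33 CPM, and at 0.1 μg/kg 1.95, 1.98 and 1.81 CPM. The level then stayed low, at 2.51, 2.1 and 2.22 CPM at 0.3 μg/kg and 2.69, 1.67 and 2.09 CPM at 1 μg/kg. It was less uniform above that, with 3.22, 2.4 and 2.33 CPM at 3 μg/kg, 3.67, 2.31 and 3.21 CPM at 10 μg/kg and 1.58, 4.35 and 2.5 CPM at 30 μg/kg.

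All 3 mice were below all 3 vehicle mice at the 6 doses from 0.01 to 3 μg/kg. At each of these doses 5.03%, 6.55%, 5.95%, 6.23%, 7.4% and 11.5% of all genes, in order of dose, were that far below. The difference was largest at 0.1 μg/kg, -1.10 on the log2 scale (SE 0.28, a fold of 2.14; unadjusted p = 0.000646, adjusted p = 0.559, edgeR's quasi-likelihood test). An unadjusted p under 0.05 was reached at 7 of 8 doses, and the smallest adjusted p was 0.176, at 30 μg/kg, where the difference was -0.55 (SE 0.26). Mouse 66, at 4.35 CPM, stood among the vehicle mice. Without it the difference at 30 μg/kg was -1.01 with an adjusted p of 0.0178 (edgeR), and the fit with the index set term gave -0.037. With that term the differences at 1, 3 and 10 μg/kg were -0.60, -0.12 and 0.10, the last of them above 0. From 0.01 to 0.3 μg/kg, within the first set, they lay between -1.10 and -0.57. Because the 8 differences share their vehicle mice, they are not 8 separate observations of a lower level.

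H2-DMb1, the β chain of the chaperone, ran differently. It was at 0.295, 2.21 and 0.883 CPM in the vehicle mice, so the control group alone spanned most of the range. At 10 μg/kg it was at 3.33, 1.46 and 2.24 CPM and at 30 μg/kg at 1.44, 1.76 and 0.862 CPM. The log2 difference was 1.06 (SE 0.46; unadjusted p = 0.0323, adjusted p = 0.227, edgeR) at 10 μg/kg and 0.28 (SE 0.49; adjusted p = 0.763) at 30 μg/kg. At 10 μg/kg it was 1.97 without mouse 3 (adjusted p = 0.0514, edgeR), 0.61 without mouse 2 and 0.54 with the index set term. The groups overlapped at every dose.

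**Figure D2:**
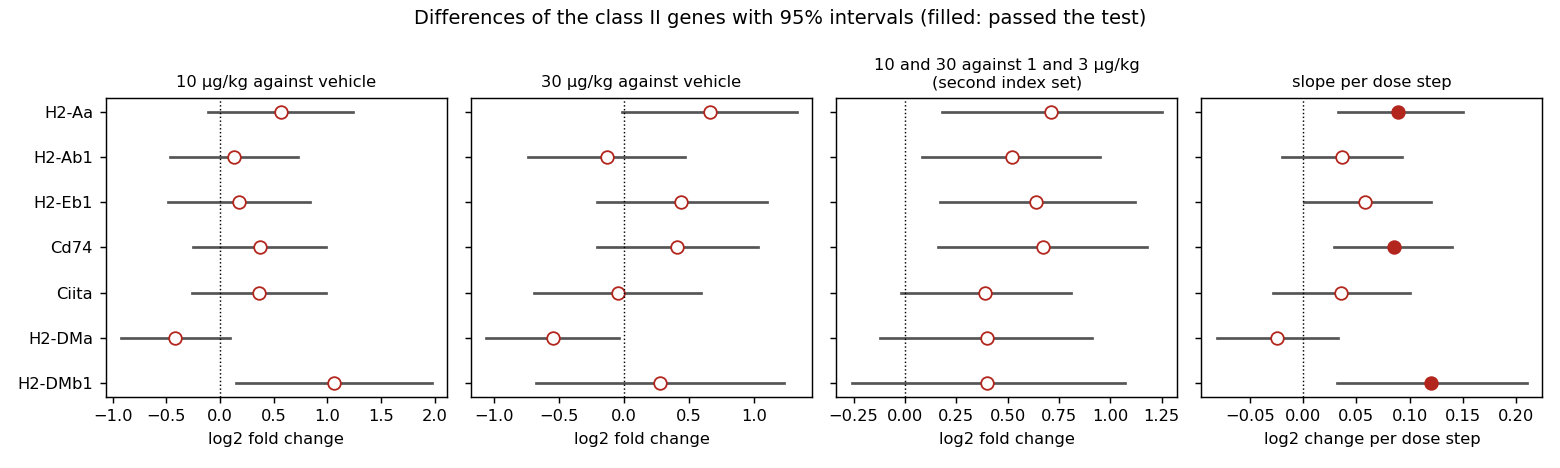
Log2 differences of the 7 class II genes with 95% intervals in 4 comparisons from edgeR's quasi-likelihood test: 10 and 30 μg/kg against vehicle, 10 and 30 against 1 and 3 μg/kg within the second index set, and the slope per dose step over 27 mice; the axes differ in range. Filled points passed the test, which only the slopes of H2-Aa, Cd74 and H2-DMb1 did, while all 7 genes lay above 0 in the comparison within the second index set.

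A slope over the rank of dose, from vehicle to 30 μg/kg, used all 27 mice in a single comparison. It was called at an adjusted p under 0.05, and 3 of 7 class II genes passed, all rising, against 11.8% of all genes rising and 23.4% changing in either direction. H2-Aa rose by a log2 change of 0.089 per dose step (SE 0.029; adjusted p = 0.0242, edgeR), Cd74 by 0.085 (SE 0.029; adjusted p = 0.0299) and H2-DMb1 by 0.12 (SE 0.045; adjusted p = 0.0499). The call of H2-DMb1 was lost in 22 of 27 fits that each left out 1 mouse, and without the filter on low counts (adjusted p = 0.079, edgeR). The slopes were 0.058 for H2-Eb1, 0.037 for H2-Ab1, 0.036 for Ciita and -0.024 for H2-DMa, with adjusted p-values of 0.152, 0.379, 0.459 and 0.59.

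The calls of these slopes were lost with the index set as a term, and the SEs of the slopes became larger. In that fit none of the 7 passed, nor did most other genes, since 0.0667% of 16496 genes did. The slopes were 0.16 for H2-Aa (SE 0.054; adjusted p = 0.138, edgeR), 0.095 for Cd74 (SE 0.056; adjusted p = 0.426) and -0.012 for H2-DMb1 (SE 0.085; adjusted p = 0.97). Without mouse 59 or without mouse 66 none of the 7 slopes passed, and without mouse 11, 14, 57 or 65 only 1 did.

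Within the 16 mice of the first index set, from vehicle to 1 μg/kg, none of the 7 slopes passed, where 0.00589% of 16982 genes did. H2-Aa had a slope of 0.12 (SE 0.045; unadjusted p = 0.0184, adjusted p = 0.596, edgeR) and H2-DMa one of -0.17 (SE 0.049; unadjusted p = 0.00261, adjusted p = 0.506). An unadjusted p under 0.05 was reached by 7.76% of all genes. Cd74 and H2-DMb1 had slopes of 0.037 and -0.048 in these mice.

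Within the 11 mice of the second index set, the 10 and 30 μg/kg mice were set against the 1 and 3 μg/kg mice. All 7 genes lay above 0, with log2 differences from 0.39 to 0.71 and a median of 0.52, against 0.0072 over all genes. None of the 7 passed the test, where 0.983% of 16169 genes did. The 3 chain genes and Cd74 reached an unadjusted p under 0.05, as 15.6% of all genes did: H2-Aa at 0.71 (SE 0.27; adjusted p = 0.235, edgeR), Cd74 at 0.67 (SE 0.26; adjusted p = 0.244), H2-Eb1 at 0.64 (SE 0.24; adjusted p = 0.23) and H2-Ab1 at 0.52 (SE 0.22; adjusted p = 0.287). Single mice of the 10 μg/kg group moved these values in both directions. Without mouse 58, low in every class II gene for its dose, H2-Aa (0.89, adjusted p = 0.0198, edgeR), H2-Eb1 (0.81, adjusted p = 0.0154) and Cd74 (0.83, adjusted p = 0.0345) passed, as did 2.01% of 16095 genes in that fit. Without mouse 59 H2-Aa was at 0.46 (adjusted p = 0.412, edgeR). Between 30 and 3 μg/kg alone, both of the second set, none passed, where 0.461% of all genes did, and the differences ran from -0.10 to 0.44.

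Several lists of markers of other cell types also lay above 0 in the same comparison within the second set. All 7 macrophage genes did, with a median of 0.63, and their sum ran from 10.4 to 17.8 CPM in the 5 mice at 1 and 3 μg/kg and from 12.9 to 27 CPM in the 6 mice at 10 and 30 μg/kg. All 7 stroma and muscle genes did, with a median of 0.68 and sums of 76.3 to 330 and 121 to 635 CPM, and the smooth muscle genes Des (2.44, SE 0.52; adjusted p = 0.0422, edgeR) and Acta2 (adjusted p = 0.027) passed. Of the B cell genes 6 of 7 tested were above 0, with a median of 0.42 and sums of 5.26 to 10.8 and 3.42 to 14.1 CPM. The median was 0.56 for the plasma cell genes (2 of 3 above 0), 0.44 for the other class II chains (2 of 2), 0.02 for the epithelial genes (6 of 8) and -0.13 for the T cell genes (3 of 6). The 2 dendritic cell genes tested lay on either side of 0, Itgax at -0.27 and Zbtb46 at 1.27. The sums of the 7 class II genes ran from 44.5 to 88.2 and from 48.5 to 128 CPM. The part of these cell types in the class II differences was not tested.

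The marker lists were also set against the vehicle. The macrophage genes summed to 12.8, 14 and 17.2 CPM in the vehicle mice in ascending order and to 12.9, 23.2 and 27 CPM at 30 μg/kg, and all 7 were above 0 at that dose. Among them C1qc, a chain of the complement component C1q, rose from 1.43 ± 0.358 to 3.35 ± 1.45 CPM (log2 difference 1.22, SE 0.34, adjusted p = 0.025, edgeR). The B cell genes summed to 7.06, 12 and 15.1 CPM in vehicle mice, 3.42, 10.8 and 12.6 CPM at 10 μg/kg and 5.77, 6.38 and 14.1 CPM at 30 μg/kg. None of the 8 tested passed at 30 μg/kg and 7 of 8 were below 0, with a median of -0.41. Cd79a, a chain of the B cell receptor complex, was at 1.07 and below 1 CPM on average over the 27 mice.

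Of the dendritic cell genes 0 of 4 tested passed at 30 μg/kg, with Itgax at -0.53 and Xcr1 at -0.28. Their sum ran from 4.32 to 4.81 CPM in vehicle mice and from 2.76 to 4.53 CPM at 30 μg/kg, and Clec9a and Cd209a, which mark subsets of these cells, were at 0 reads in 9 and 13 of 27 mice. Of the T cell genes 0 of 6 passed and 3 were above and 3 below 0, from -0.84 for Cd3d and -0.69 for Cd8a to 0.48 for Cd3e. Of the plasma cell genes 0 of 3 passed, with Derl3 at -1.30 and Jchain at 0.91. Of the epithelial genes 0 of 8 passed both limits, with Krt20 at 0.45 and Vil1 at 0.36, and of the stroma and muscle genes 0 of 7, with Myh11 and Des both at 2.49. Over dose rank, where index set follows dose, 6 of 8 epithelial, 2 of 7 macrophage, 2 of 7 stroma and muscle and 1 of 3 plasma cell genes rose, and 0 of 8 B cell, 0 of 4 dendritic cell and 0 of 6 T cell genes passed, beside the 11.8% of all genes that rose. With the index set term none of the genes of these 7 lists passed.

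Between mice of the same dose 4 of the 7 class II genes, H2-Aa, H2-Ab1, H2-Eb1 and Cd74, varied together. Each gene's log2 CPM was centred on its dose group mean and correlated over the 27 mice, with a permutation test within dose groups and adjustment over 70 relations. In the 1 μg/kg group, which mixed the index sets, these deviations also hold any difference between the sets. All 6 pairs among them passed, with Pearson's r from 0.73 to 0.88, and none of the other 15 pairs of the 7 genes did. The 6 pairs join the peptide-binding chains and their invariant chain, and each of the others involves Ciita or an H2-DM chain. Within the index sets some pairs with an H2-DM chain had r as high as pairs that passed, as given below.

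H2-Ab1 and Cd74 were the closest pair, with r = 0.88 (permutation p = 0.00012, adjusted p = 0.0042) and Spearman's rho of 0.86 (permutation p = 3.00e-05, adjusted p = 0.00105). H2-Aa and Cd74 followed with r = 0.85 (permutation p = 2.00e-05, adjusted p = 0.0014) and a rho of 0.83 (permutation p = 1e-05, the smallest that the permutations can give, adjusted p = 0.0007). H2-Aa and H2-Eb1 had r = 0.83 and rho 0.72 (permutation p = 0.00078 and 0.00168, adjusted p = 0.00957 and 0.0168). H2-Aa and H2-Ab1, the partners of I-A, had r = 0.78 and rho 0.76 (permutation p = 0.0004 and 0.00019, adjusted p = 0.00717 and 0.00443).

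The remaining pairs of this group were H2-Ab1 with H2-Eb1, at r = 0.75 and rho 0.73 (permutation p = 0.00112 and 0.00124, adjusted p = 0.0098 and 0.0157), and H2-Eb1 with Cd74, at r = 0.73 and rho 0.65 (permutation p = 0.00041 and 0.00105, adjusted p = 0.00717 and 0.0157). Leaving out the 2 mice farthest from the median of the first gene gave r from 0.62 to 0.83 for the 6 pairs. Within the first index set r was 0.46 for H2-Aa with H2-Ab1, 0.51 for H2-Ab1 with H2-Eb1, 0.59 for H2-Aa with H2-Eb1, 0.50 for H2-Eb1 with Cd74, 0.66 for H2-Aa with Cd74 and 0.73 for H2-Ab1 with Cd74. Within the second set r was higher for each, between 0.81 and 0.94. That difference between sets was not tested.

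**Figure D3:**
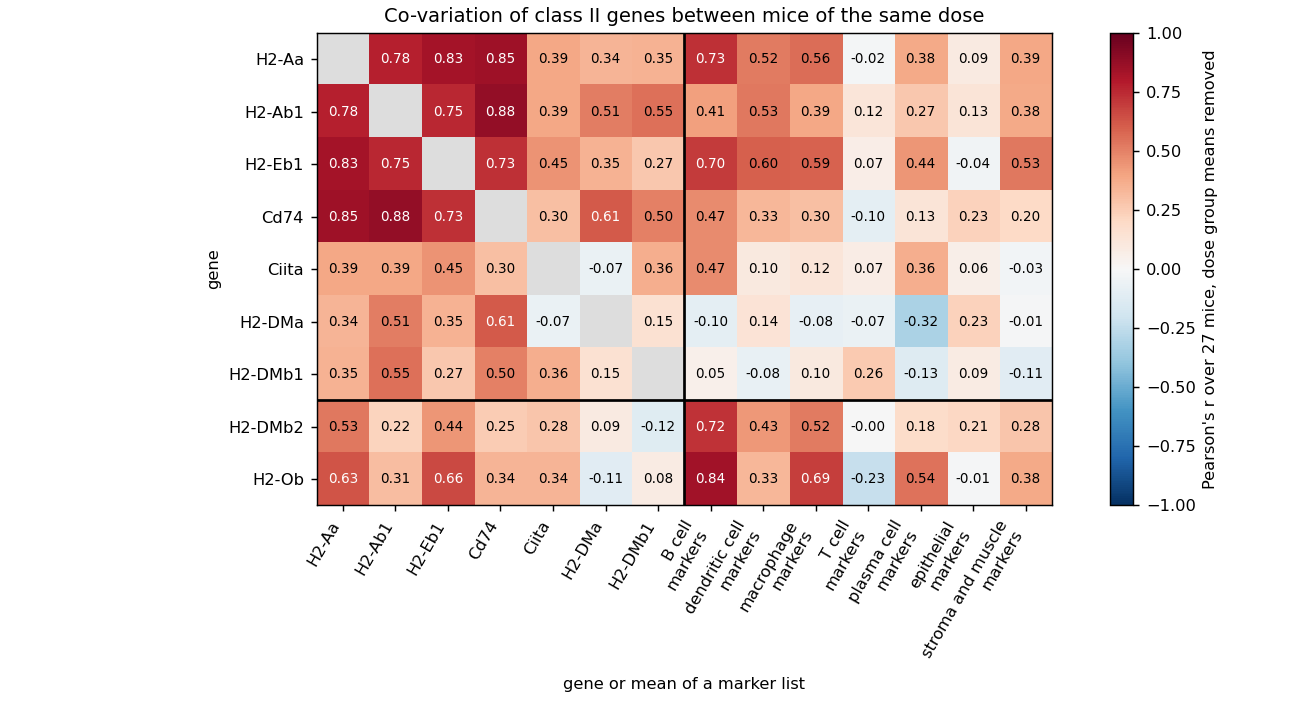
Pearson's r over 27 mice, after subtraction of dose group means, between class II genes (rows) and class II genes or mean levels of marker lists (columns); H2-DMb2 and H2-Ob are below the horizontal line and marker lists right of the vertical line. The block of H2-Aa, H2-Ab1, H2-Eb1 and Cd74 holds r from 0.73 to 0.88, and the highest value outside it is 0.84, for H2-Ob with the B cell genes.

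Ciita, the transactivator of the others, had r of 0.30 with Cd74, 0.39 with H2-Aa, 0.39 with H2-Ab1 and 0.45 with H2-Eb1, none of which passed (adjusted p from 0.139 to 0.382 by permutation). In the first index set these were 0.22, 0.28, 0.42 and 0.39, in the same order. In the second they were higher, at 0.52, 0.71, 0.59 and 0.71. With a median of 34 reads a mouse, the counting error of Ciita is larger than that of the chains. H2-DMa had r = 0.61 with Cd74 and 0.51 with H2-Ab1, and H2-DMb1 had r = 0.55 with H2-Ab1 and 0.50 with Cd74 (adjusted p = 0.12, 0.155, 0.12 and 0.139 by permutation). With H2-Aa and H2-Eb1 r was lower, at 0.34 and 0.35 for H2-DMa and at 0.35 and 0.27 for H2-DMb1. Ciita had r = -0.069 with H2-DMa. H2-DMa and H2-DMb1, whose products pair, had r = 0.15 with each other (permutation p = 0.502, adjusted p = 0.804). Of all 21 pairs 20 had r above 0, with a median of 0.45.

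The co-variation showed in whole mice. All 7 genes were above their group mean in 4 mice, which were mouse 3 of the vehicle group, mouse 9 at 0.01 μg/kg and mice 57 and 59 at 10 μg/kg. All 7 were below it in 3 mice, which were mouse 52 at 3 μg/kg, mouse 58 at 10 μg/kg and mouse 67 at 30 μg/kg. Mouse 58 was lowest in its group by the most, at -1.02 for H2-Aa, -0.95 for H2-Eb1, -0.94 for Cd74 and -0.73 for H2-Ab1 on the log2 scale. The opposite end was held by mouse 59 of the same group for H2-Aa, at 0.82, beside 0.70 in mouse 41. For H2-Eb1 mice 59 and 41 were both at 0.65. Mouse 41 was the highest for H2-Ab1, at 0.77, and mouse 66 for Cd74, at 0.61, beside 0.60 in mouse 41.

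Of the 7 genes, H2-Aa and H2-Eb1 passed the test of co-variation with marker genes of B cells. H2-Aa correlated with the mean of the B cell list at r = 0.73 and rho 0.73 (permutation p = 0.00112 and 0.00135, adjusted p = 0.0098 and 0.0157), and H2-Eb1 at r = 0.70 and rho 0.65 (permutation p = 0.00082 and 0.00258, adjusted p = 0.00957 and 0.0226). Leaving out the 2 farthest mice gave 0.64 for each. Within the first and second index sets r was 0.64 and 0.80 for H2-Aa and 0.54 and 0.80 for H2-Eb1. Ciita and Cd74 each had r = 0.47 and H2-Ab1 had 0.41 (adjusted p = 0.201, 0.201 and 0.244 by permutation), and the H2-DM chains had r of -0.10 and 0.047. Within the first and second index sets r was -0.14 and 0.73 for H2-Ab1, 0.30 and 0.89 for Ciita, 0.22 and 0.56 for Cd74, -0.25 in each for H2-DMa and -0.18 and 0.52 for H2-DMb1. Whether these values differ between genes was not tested.

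Cd74 and the B cell list lay on opposite sides of the group mean in 10 of 27 mice. The same held in 7 mice for H2-Eb1, 8 for H2-Aa, 11 for H2-Ab1, 12 for Ciita, 13 for H2-DMb1 and 15 for H2-DMa. By this count Cd74 lies near H2-Aa and H2-Eb1, which passed. Among its 10 mice, Cd74 was the higher in mice 66 and 3, at 0.61 and 0.53 on the log2 scale with the B cell list at -0.53 and -0.54. It was the lower in mice 65 and 14, at -0.22 and -0.17 with the B cell list at 0.86 and 0.75. In mouse 66 the macrophage, plasma cell and stroma and muscle lists were also low, at -0.67, -0.90 and -1.20. In mouse 58 both Cd74 and the B cell list were low, with the B cell list at -1.14, and in mouse 59 both were high, with the B cell list at 0.67.

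No class II gene passed with the dendritic cell, macrophage, T cell, plasma cell or epithelial lists. The highest r was 0.60 with dendritic cell genes and 0.59 with macrophage genes, both for H2-Eb1 (adjusted p = 0.0844 and 0.0633 by permutation), 0.44 with plasma cell genes, 0.26 with T cell genes and 0.23 with epithelial genes. Within the first and second index sets r with macrophage genes was 0.74 and 0.28 for H2-Aa and 0.54 and 0.48 for H2-Eb1. With dendritic cell genes it was 0.52 and 0.23 for H2-Aa, 0.64 and 0.26 for H2-Eb1 and 0.53 and -0.0059 for H2-Ab1. Ciita had -0.16 and 0.63 with macrophage and -0.091 and 0.79 with dendritic cell genes. In the first set H2-Aa was higher with macrophage genes, and H2-Eb1 with dendritic cell genes, than with B cell genes, and lower in the second. This was not tested. With the stroma and muscle list H2-Eb1 alone passed, at r = 0.53 and rho 0.53 (permutation p = 0.00261 and 0.0051, adjusted p = 0.0203 and 0.0397). Leaving out the 2 farthest mice gave 0.57 for that relation, and r was 0.44 and 0.33 within the first and second index sets. These correlations are between libraries that each hold all cell types of a scraping, so they do not say in which cells the class II reads arose.

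**Figure D4:**
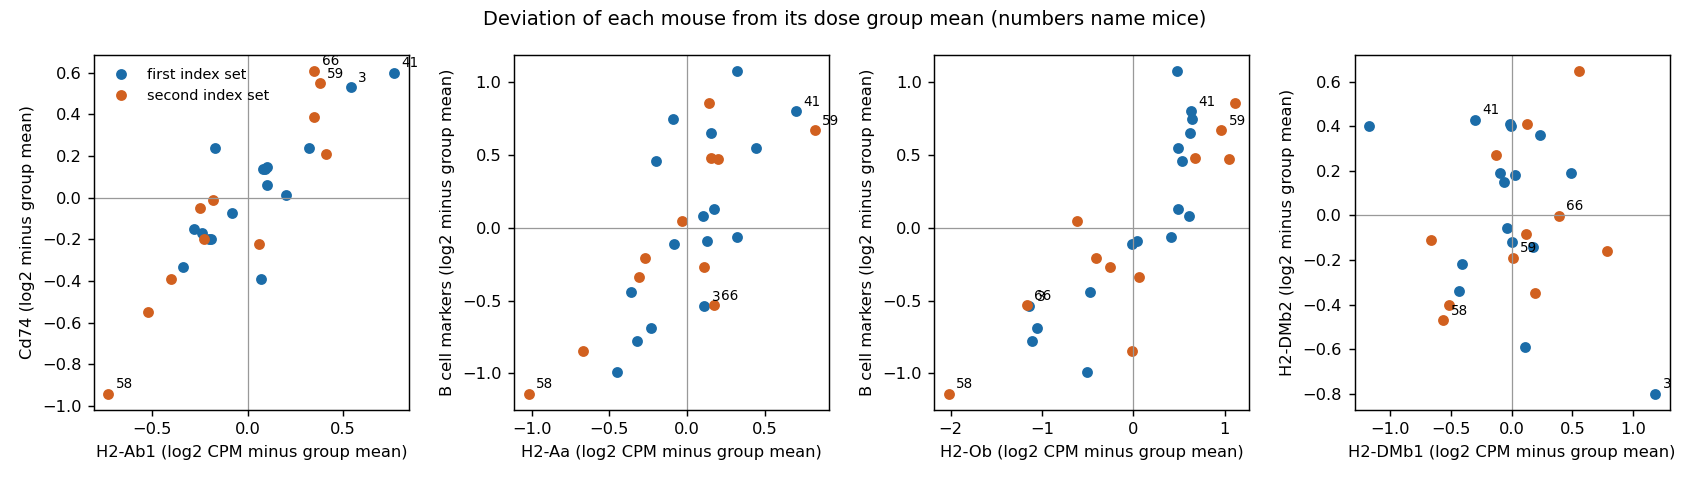
Deviation of each of 27 mice from its dose group mean (log2 scale) for H2-Ab1 against Cd74, H2-Aa and H2-Ob against the B cell list, and H2-DMb1 against H2-DMb2; colours give the index set and numbers name mice 3, 41, 58, 59 and 66. Mouse 58 is at the lower left of the first 3 panels, while mice 3 and 66 lie high on Cd74 and low on the B cell list.

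The other class II chains were set against the same lists. H2-Ob, the β chain of H2-O, an inhibitor of H2-DM that is typical of B cells, was at 0 to 21 reads a mouse and H2-DMb2, the second H2-DM β chain, at 6 to 27 reads. The 28 relations of these genes were computed after their values had been seen. H2-Ob had r = 0.84 and rho 0.86 with the B cell list (permutation p = 3.00e-05 for each, adjusted p = 0.00084 over the 28), and r was 0.84 and 0.85 within the first and second index sets and 0.81 without the 2 farthest mice. H2-DMb2 had r = 0.72 and rho 0.72 with that list (permutation p = 0.00095 and 0.00133, adjusted p = 0.0133 and 0.0182), with 0.79 and 0.56 within the sets and 0.74 without the 2 farthest mice. H2-Ob also passed with the macrophage list, at r = 0.69 and rho 0.67 (permutation p = 0.00148 and 0.0026, adjusted p = 0.0138 and 0.0182), with 0.46 and 0.88 within the sets and 0.60 without the 2 farthest mice. H2-DMb2 had r = 0.52 with that list (adjusted p = 0.0806 by permutation), and with the class II genes H2-Ob passed with H2-Eb1, at r = 0.66 and rho 0.62 (adjusted p = 0.0179 and 0.0182 by permutation). By rho alone H2-Aa passed with H2-DMb2, at rho 0.62 and r = 0.53 (adjusted p = 0.0354 and 0.113 by permutation), and with H2-Ob, at rho 0.57 and r = 0.63 (adjusted p = 0.0486 and 0.0534).

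The copies H2-DMb1 and H2-DMb2 had r = -0.12 with each other (permutation p = 0.749, adjusted p = 0.809), with -0.43 in the first index set and 0.50 in the second. In mouse 3 of the vehicle group H2-DMb1 was at 2.21 CPM and H2-DMb2 at 0.632 CPM, while mouse 2 of that group had 0.295 and 1.67 CPM. The printed windows of the copies differ at the X box, where H2-DMb1 holds both parts of the pattern and H2-DMb2 the right part. H2-Oa and H2-Eb2, at medians of 3 reads each, were below the filter. At 30 μg/kg neither of the 2 tested chains passed, with H2-Ob at -0.94 (SE 0.80, adjusted p = 0.481, edgeR) and H2-DMb2 at 0.15 (SE 0.38, adjusted p = 0.848).

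Of the machinery that feeds the pathway no listed gene passed at 30 μg/kg. Of 9 genes of class II processing, among them the cathepsins that cut the invariant chain, none passed, and the largest differences were 0.36 for March1, a ligase that removes class II from the surface, and -0.30 for Ctsl. Of the 7 factors that bind the X and Y boxes none passed, and the largest were Rfxap at -0.39 and Creb1 at -0.33. Over dose rank Ctss, the main protease of the invariant chain in antigen presenting cells, rose by 0.044 per step (SE 0.015; adjusted p = 0.0302, edgeR), March8 rose by 0.025 (SE 0.0067; adjusted p = 0.00768) and Rfxap, a subunit of the X box factor RFX, fell, with a slope of -0.046 (SE 0.015; adjusted p = 0.0271). In these slopes, as in those of the genes that follow, index set goes with dose. With it as a term none of the 3 passed, and the slopes were 0.028 for Ctss, 0.0059 for March8 and -0.031 for Rfxap (adjusted p = 0.662, 0.866 and 0.635, edgeR).

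Of 7 tested genes between interferon γ and Ciita, Socs1, a feedback inhibitor of the JAK kinases, fell at 30 μg/kg. It went from 4.42 ± 0.497 CPM in vehicle mice to 1.85 ± 0.484 CPM (log2 difference -1.25, SE 0.28, adjusted p = 0.00659, edgeR). Irf1, a factor that helps switch on Ciita after interferon γ, did not pass, at -0.31 (adjusted p = 0.199, edgeR). Ifngr2, a subunit of the interferon γ receptor, rose over dose rank by 0.041 per step (SE 0.0098; adjusted p = 0.00288, edgeR). Ifng itself was at 0 reads in 24 of 27 mice and at most 2 reads in any, too few for a comparison. Of the 9 class I genes none passed at 30 μg/kg, with Psmb9 at -0.46 and H2-K1 at 0.20, and over dose rank H2-K1 and Nlrc5, the class I transactivator, rose by 0.035 and 0.089 per step (adjusted p = 0.0164 and 0.0431, edgeR). With the index set term the slopes were 0.026 for Ifngr2, 0.025 for H2-K1 and -0.018 for Nlrc5 (adjusted p = 0.515, 0.584 and 0.92, edgeR).

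Among 4 costimulatory genes Icosl, the ligand of the T cell receptor Icos, rose at 30 μg/kg. It went from 6.02 ± 0.93 to 11.2 ± 1.79 CPM (SD, n = 3 each; log2 difference 0.89, SE 0.22, adjusted p = 0.0107, edgeR). Icosl also rose over dose rank, by 0.11 per step (SE 0.021; adjusted p = 0.000258, edgeR). With the index set term its slope was 0.12 and did not pass (SE 0.039; adjusted p = 0.131, edgeR). For Socs1, Icosl and C1qc, which passed at 30 μg/kg, the vehicle and the dose group lie in different index sets, so that dose and index set cannot be told apart in these comparisons. Within the second index set, 10 and 30 against 1 and 3 μg/kg gave -0.10 for Socs1, 0.40 for Icosl and 0.63 for C1qc. None of the 3 passed there (adjusted p = 0.888, 0.199 and 0.282, edgeR). Cd80 was at 0 reads in 17 of 27 mice, and Cd86 and Cd40 were below 2 CPM on average.

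The genes that followed the class II genes most closely were sought among 14559 genes with a mean of at least 1 CPM. Each was correlated with the mean of the 7 centred and scaled profiles over 27 mice, with no test. The highest r of so many genes is raised by the selection itself, so the names are a description only. The 10 closest were Fbxw11, Arfgap3 and Uevld at r = 0.73, 9530056K15Rik, Pdcl3 and D730003I15Rik at 0.70, Ttl and Mblac1 at 0.69 and Pcdh1 and Gm10524 at 0.68. The class II relative H2-DMb2 was lower in this order, at 0.32. H2-Ob, whose mean was below 1 CPM and which was therefore not among the genes compared, had r = 0.43. None of the 10 passed at 30 μg/kg, where their log2 differences ran from -0.20 for Ttl to 0.33 for Gm10524. Over dose rank, with which index set goes, Fbxw11 and Arfgap3 rose by 0.04 and 0.038 per step (adjusted p = 0.00552 and 0.00121, edgeR) and Ttl fell, with a slope of -0.053 (adjusted p = 0.00832).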

How the data were processed

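RNA-seq libraries of colonic epithelium from 27 mice were analysed. The authors deposited 1 table of raw read counts per gene for each mouse. The submitters' processing notes name FastQC 0.11.3, Trimmomatic 0.33, TopHat2 2.1.0, SAMtools 1.2.0, HTSeq 0.6.1, DESeq and GRCm38; their settings, the annotation and the strand setting are not given in the sources used here. Index sets were read from barcodes in the names of the deposited tables. Rows that count no gene were left out; of the sum of all rows of a table, reads outside genes took 29.1 to 33.3%, those not aligned uniquely 30.7 to 37.1% and those shared by genes 0.392 to 0.607%. Symbols matched 45229 of 46078 rows.

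Counts were fitted with edgeR 4.0.16 (limma 3.58.1, R 4.3.3; filterByExpr with a minimum count of 10, TMM, glmQLFTest) over all mice and 16496 genes, tested on simulated data. CPM used TMM library sizes; log2 CPM for correlations used a prior count of 2, and 100000 permutations. The labels do not state whether mice were littermates or cage mates. Alternatives were DESeq2 1.42.0 and its size factors, limma voom, no filter, only the groups compared, an index set term, log10 dose and leaving out each mouse. Class II genes in full, listed genes called at 30 μg/kg (otherwise the 2 largest differences) and the 10 most alike genes were named; genes with slopes were added after their values were seen. The genes and lists were chosen with earlier results of these data known. Single values of some genes on these lists are not reported here.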

Additional observations from a re-analysis of the deposited data

How the results depend on the processing

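No paired analysis was possible because the mouse numbers of the labels are all different and no number recurs between dose groups. The count of class II genes called against vehicle stayed at 0 at every dose under other size factors, DESeq2, limma voom, no filter, only the groups compared, adjusted p alone and the index set term. Leaving out each mouse moved it between 0 and 1 at 30 μg/kg, and the count for 10 and 30 against 1 and 3 μg/kg between 0 and 3. The count of slopes went from 3 to 0 with the index set term and ran from 0 to 3 over the mice left out. The slope of H2-DMb1 was lost in 22 of 27 such fits, that of Cd74 in 5 and that of H2-Aa in 3. The 6 correlated pairs became 4 to 7. Of 781 single-gene values recomputed, 720 kept direction and side of the threshold and 24 changed sign, among them the called slope of H2-DMb1, and none passed with its new sign. With the index set term H2-Ab1 at 30 μg/kg became 1.03, H2-DMb1 -0.25, H2-DMa at 10 μg/kg 0.10 and the slope of H2-DMb1 -0.012. With limma voom, 30 against 3 μg/kg gave -0.041 for H2-DMa and 0.017 for H2-DMb1. With a mouse left out, H2-Ab1 ran from -0.049 to 0.45 at 10 μg/kg, -0.32 to 0.20 at 30 μg/kg, -0.059 to 0.37 for 30 against 3 μg/kg and -0.012 to 0.13 for its slope in the first index set. H2-Eb1 at 10 μg/kg ran from -0.17 to 0.52, Ciita at 30 μg/kg from -0.24 to 0.22 and the slope of Cd74 in the first index set from -0.015 to 0.11. For 30 against 3 μg/kg H2-DMa ran from -0.38 to 0.38 and H2-DMb1 from -0.41 to 0.47; H2-DMb1 ran from -0.18 to 1.19 at 30 μg/kg and from -0.11 to 0.069 for its slope in the first index set. H2-DMb1 was filtered out when only the groups compared were fitted at 0.01 and 0.03 μg/kg. The causes were not tested. With 3 to 65 reads a mouse for H2-DMb1, H2-DMa and Ciita, counting error limits what these libraries can show.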

Other observations

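H2-Aa and H2-Ab1 encode the partner chains of I-A, and the ratio of their reads within each mouse was taken after their values had been seen. It was 0.532, 0.721 and 0.983 in the vehicle mice in ascending order and 1.08, 1.29 and 1.31 at 30 μg/kg. These groups did not overlap (exact permutation p = 0.1, the smallest that 3 against 3 mice allow). At 10 μg/kg it was 0.716, 0.795 and 1.21 and overlapped the vehicle (exact permutation p = 0.5). The doses from 0.01 to 3 μg/kg also overlapped the vehicle, with ratios from 0.683 to 1.3. The ratio does not depend on library size. It ran from 0.532 to 1.3 in the first index set and from 0.716 to 1.31 in the second.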
